A study of Oryza sativa Japonica Group with 18 samples.

Results

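Shoots of a rice gi knockout were compared with shoots of wild type (WT), using 6 of the 18 arrays of a study on the PHO2 and GIGANTEA genes. The 6 arrays were chosen by their sample titles and comprise 3 arrays of gi shoots and 3 of WT shoots. Both groups are in the cultivar Nipponbare (Oryza sativa, Japonica Group), WT being unmodified Nipponbare and gi a knockout of OsGIGANTEA (GI). The plants of all groups were 21 days old. They had germinated in tap water for 2 days and then grown for 19 days in hydroponic solution with sufficient phosphate (Pi), at 30 °C by day and 22 °C by night with a 12 h photoperiod. The other arrays hold gi and WT roots, and shoots and roots of a pho2 knockout in the same background, with 3 arrays in each group, and are used here only where stated. The labels give neither the kind of mutation nor the number of lines behind the gi plants. They also do not say whether replicates are separate plants or pools, and the spread behind each p-value is that among these samples, which may be technical. The hour of harvest is not in the details used here, and its part in the changes of clock genes was not tested.

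GIGANTEA is a large plant protein that is made in the evening and links the circadian clock to flowering. The clock of plants is a loop of morning repressors such as LHY and evening factors such as PRR1 (the rice TOC1), which repress each other in turn. In rice, GI acts upstream of Hd1 and the florigen gene Hd3a, and its loss is known to shift flowering. The title of the series links GI and PHO2, a ubiquitin-conjugating enzyme that restrains Pi uptake, to flowering time and Pi balance. The comparison described here asks which shoot transcripts differ when GI is lost.

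Transcript signal was measured on Affymetrix rice arrays as 1 linear intensity per probe set. The table holds 57258 probe sets that are not controls, and 34355 were bright enough in shoots to be tested, in a fit of the 9 shoot arrays (gi, WT and pho2). A log2 change is gi less WT of log2(signal + 16), so changes of dim probe sets are understated, and a probe set was called at a limma adjusted p under 0.05. Levels are means ± SD in signal units with n = 3. Array medians lay between 52.5 and 70.3 signal units, and precision is limited by how few arrays there are. Replicates correlated at 0.9689 to 0.9712 in WT shoots and 0.9535 to 0.968 in gi shoots (Pearson's r of log2 signals across probe sets, which are not independent replicates), and gi with WT shoot arrays at 0.9423 to 0.9612. A hybridisation control, BioB-3, lay between 919 and 1025 signal units on the WT shoot arrays, between 832 and 881 on the gi shoot arrays and between 28.6 and 42.4 on the gi and WT root arrays. All gi shoot arrays were thus below all WT shoot arrays in this control, and also in CreX-3. The groups overlapped in BioDn-3 and in BioC-3, which lay between 2118 and 2347 on WT shoot and between 1795 and 2196 on gi shoot arrays. BioC-3 differed less by tissue, with 862 to 1142 on the gi and WT root arrays. The part of these controls in the changes was not tested. A gene name is the one the gene tables give. Probe sets with only a locus number or with no gene in these tables are given by that number or by the probe set's identifier.

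One array of another group stood apart, which bears on every root value below and on how some shoot changes can be read. At 43 probe sets, WT root replicate 2 lay at least 3 log2 units from the mean of the other 2 WT root arrays, which were within 1 log2 unit of each other. The same count was 0 and 1 for the other WT root arrays and 0 to 18 for the arrays of the other groups. At 26 of these 43 probe sets the mean of the gi roots was nearer to WT root replicate 2 than to the other WT root arrays, and the pho2 roots gave 26 as well. The 3 WT shoot arrays, by their mean, were nearer to WT root replicates 1 and 3 at 38 of the 43. GI itself was present on that array, at 7007 signal units against 7236 and 7393. Root values are therefore given with and without WT root replicate 2, while the shoot comparison does not use it. Of the 43 probe sets, 35 were tested in shoot and 26 of these were called in gi shoots, among them LOC4352868, APG8D and both OsAffx.31233 probe sets below. At these probe sets, and at others in this comparison, loss of GI and another difference between the gi and WT plants cannot be told apart.

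**Figure D1:**
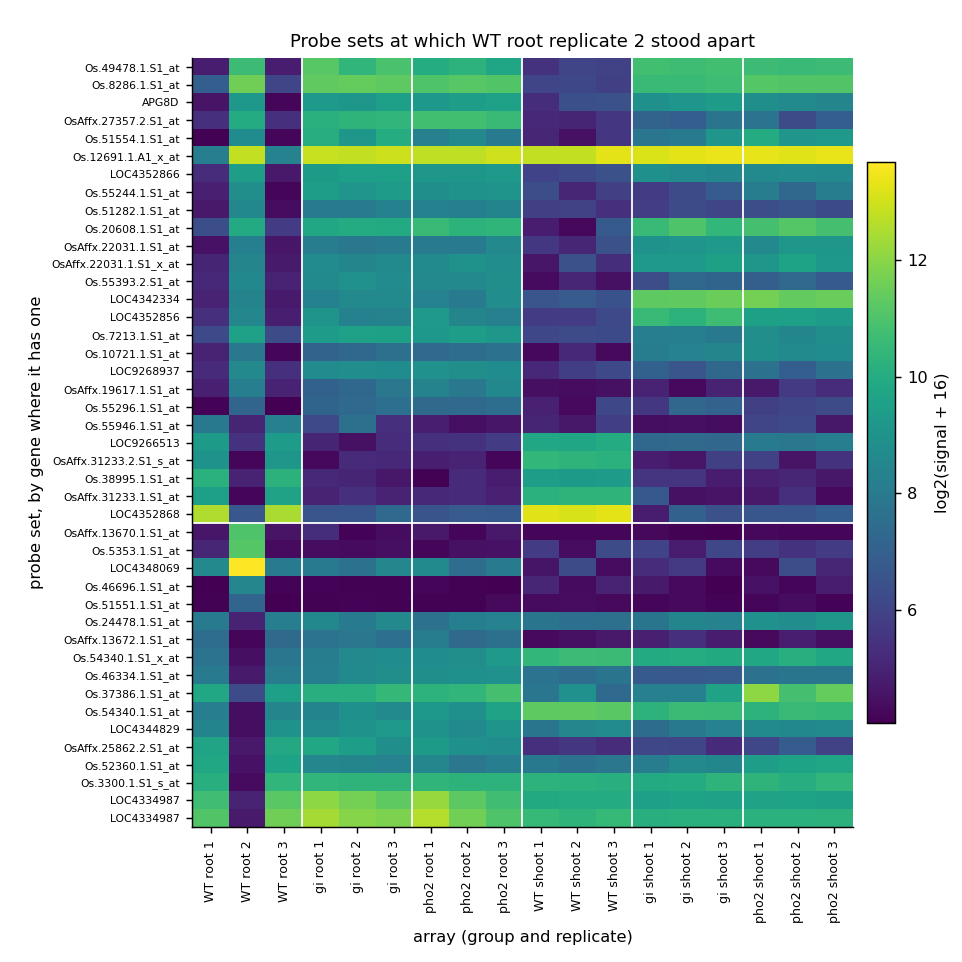
Heat map of log2(signal + 16) on all 18 arrays (columns, by group and replicate) for the 43 probe sets at which WT root replicate 2 stood apart (rows, by gene where there is one). Above the white line are the 26 rows where the gi roots were nearer to WT root replicate 2 than to WT root replicates 1 and 3, and below it the other 17.

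The GI transcript was lost in gi shoots. Its probe set read 11521, 9868 and 10889 signal units in the WT shoots and 44.6, 5.43 and 14.6 in the gi shoots, so the groups lay far apart. The log2 change was -8.30 (SE 0.271, limma adjusted p = 6.33e-09). Green tissue was present in both groups, since the summed signal of 19 photosynthesis genes was 380769 to 448107 units in WT shoots and 372611 to 445756 in gi shoots, against 28239 to 30268 in WT roots. The summed signal of 12 root marker genes was 4376 to 6064 in WT shoots, at most 3035 (median 2571) in gi shoots and 43025 to 47205 in WT roots. One of them, NAAT1, averaged 2386 in WT shoots and 156 in gi shoots and so weighed heavily in these sums. It averaged 1278 in WT roots, so it was not higher in WT root than in WT shoot. Of the 10 root markers tested, 6 were not called, and the median log2 change was 0.11. The 16 floral organ identity genes summed to 596 to 831 in WT shoots and 969 to 1044 in gi shoots, and 12 of them were under 50 signal units in WT shoots.

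Loss of GI went with changes at 6027 of the 34355 probe sets tested (17.5%), of which 3085 rose (8.98%) and 2942 fell (8.56%). The risen probe sets changed more: their median log2 change was 0.85, against -0.51 for those that fell. A change of at least 1 log2 unit was called at 1692 probe sets (4.93%), 1250 up and 442 down. At 4 log2 units or more there were 35 up and 11 down. The 3 gi arrays did not overlap the 3 WT arrays at 5972 of the called probe sets, and at 11893 of all those tested (34.6%). The median log2 change over all probe sets was -0.01. When each array was centred on its median, that value became -0.12 and the share of risen among called probe sets went from 51.2% to 40.5%. The count of calls was 3849 without WT shoot replicate 1. In bulk tissue, fewer cells of a type and less RNA per cell cannot be told apart in any of these changes.

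**Figure D2:**
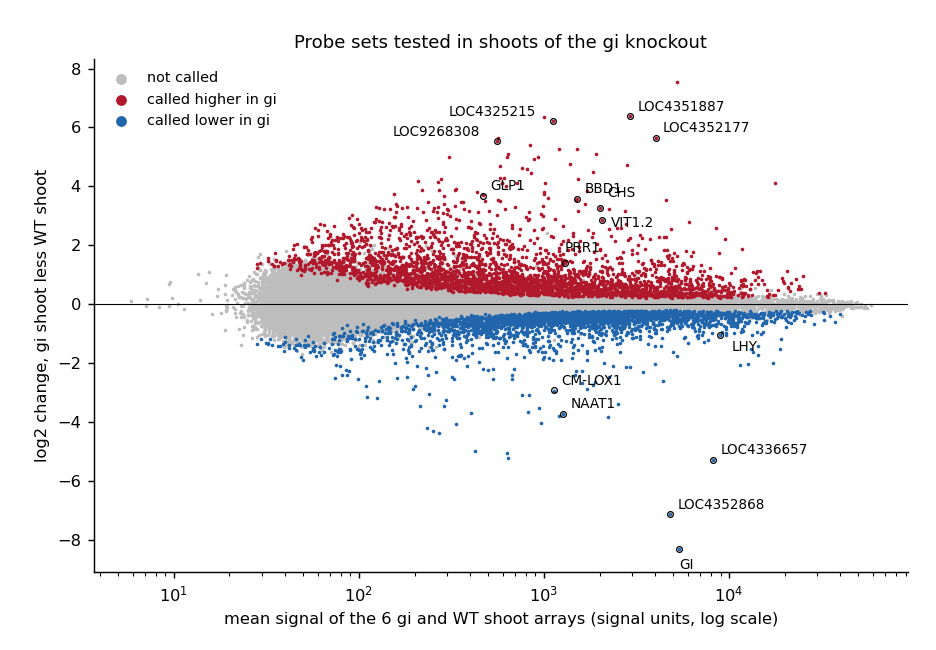
Log2 change in gi shoots (gi less WT, vertical) against the mean signal of the 6 arrays (horizontal, log scale) for the 34355 probe sets tested, with called higher in red, called lower in blue and the rest in grey. GI is the lowest point at -8.30, and the labelled loci LOC4325215 and LOC4351887 lie above 6.

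Most of the changed probe sets carry no gene name. Of the called ones 3693 had a locus number only, 1637 no gene and 681 a named gene. The share called was 24.9% for named genes, 22.6% for locus numbers and 10.8% for probe sets without a gene. Called probe sets were spread over the genome, with 21.8% (chromosomes 9 and 12) to 24.5% (chromosome 3) of the tested probe sets of a chromosome called.

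After GI, the largest changes were at loci without a name, many of them near background in 1 of the groups. LOC4352868, on chromosome 12, read 9704, 8943 and 9968 signal units in WT shoots and 11.2, 117 and 71.6 in gi shoots. The groups lay far apart (log2 change -7.13, SE 0.418, limma adjusted p = 9.22e-07). Other probe sets of this locus changed less, by -2.06 and -0.27 where called and by -0.48 and -0.41 where not. LOC4336657 fell from 10116, 16838 and 21159 to 422, 264 and 492 (-5.28, limma adjusted p = 9.44e-06). All 3 gi arrays were far below all 3 WT arrays there. Probe sets without a gene completed the list of largest falls, with log2 changes of -5.23 (OsAffx.31233.2.S1_s_at), -5.05 (OsAffx.31233.1.S1_at), -4.99 (Os.4808.1.S1_at) and -4.37 (Os.45926.1.S1_s_at).

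Among the risen loci, LOC4351887 read between 12.9 and 78.6 in WT and 1653, 5599 and 10205 in gi (6.38, SE 0.747, limma adjusted p = 0.000144). The gi arrays differed among themselves there by several fold, but each exceeded every WT array. LOC4325215 read 11.6, 14.7 and 16.8 in WT and 2095, 2309 and 2296 in gi, with little spread in either group (6.21, SE 0.113, limma adjusted p = 3.61e-11). LOC4352177, on chromosome 12, rose from 139 ± 30.3 to 7910 ± 2689 (5.65, limma adjusted p = 5.2e-08). LOC9268308, on chromosome 7, read at most 10.5 in WT and 1038, 1113 and 1170 in gi (5.53, limma adjusted p = 7.34e-07). A second probe set of LOC4351887 rose by 7.55 (limma adjusted p = 0.000268), the highest value of all, but a gene is represented here by its probe set of smaller p. On that basis the gene-less probe sets Os.46459.1.S1_at (6.34) and Os.38086.2.S1_x_at (5.64) made up the rest of the highest 6.

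Most of these largest changes were also called in pho2 shoots in the same direction. Those shoots share the WT arrays, so the values are only set side by side. At loci changed alike in both knockouts, loss of GI and another difference from the WT plants cannot be told apart. GI itself averaged 7355 signal units in pho2 shoots (log2 change against WT -0.55, limma adjusted p = 0.164). In pho2 shoots 9835 of 34355 probe sets were called (28.6%). LOC4352868 averaged 90.2 signal units in pho2 shoots against 66.5 in gi, LOC4325215 averaged 2289 against 2233, and Os.46459.1.S1_at averaged 1885 against 1994. Also called lower there were LOC4336657 (log2 change -3.08), Os.45926.1.S1_s_at (-3.11), Os.4808.1.S1_at (-5.09), OsAffx.31233.1.S1_at (-5.49) and OsAffx.31233.2.S1_s_at (-5.01). LOC4351887 (3.23) and Os.38086.2.S1_x_at (5.73) were called higher there too. LOC4352177 and LOC9268308 were not called there. LOC4352177 averaged 187 in pho2 shoots (log2 change against WT 0.38, limma adjusted p = 0.285). LOC9268308 averaged 26.7 there (0.74, limma adjusted p = 0.0994), with 8.40 in WT and 1107 in gi.

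**Figure D3:**
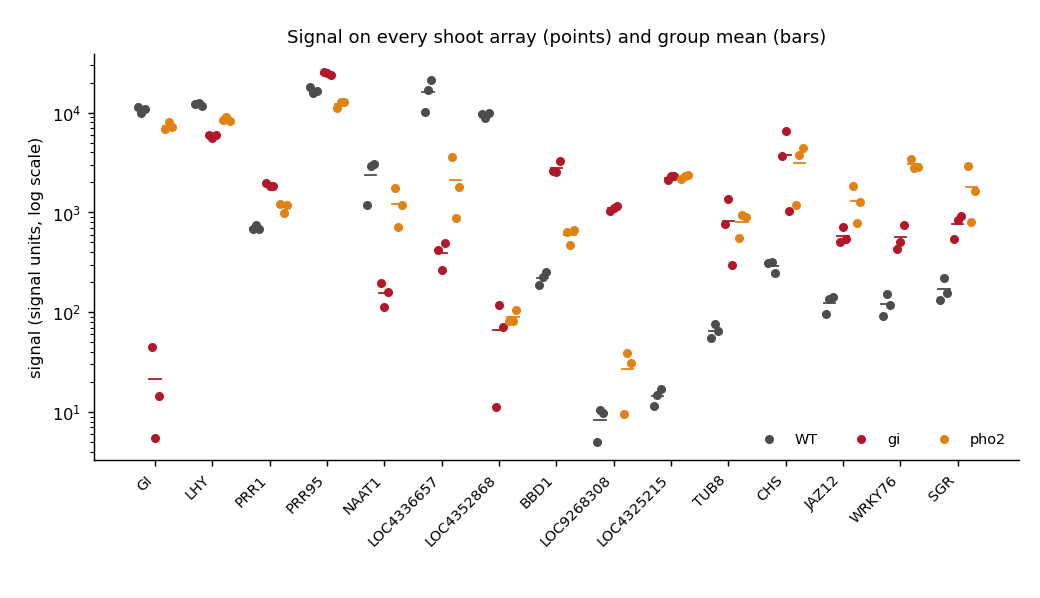
Signal (log scale) of 15 genes on each of the 9 shoot arrays, with WT in grey, gi in red and pho2 in orange, and bars for the group means. GI read 5.43 to 44.6 on gi arrays, and LOC4352868 and LOC4325215 lay at like levels in gi and pho2 while LOC9268308 was high in gi.

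Beside GI, 3 clock genes were called, LHY lower and PRR1 and PRR95 higher. Of 7 clock genes tested, 2 rose and 2 fell (GI among them), and 3 were not called, beside 12.8% risen and 11.6% fallen among all genes. LHY, a morning MYB repressor, read 12281, 12423 and 11616 in WT shoots and 5961, 5625 and 5961 in gi shoots. All gi arrays were far below all WT arrays (-1.05, SE 0.069, limma adjusted p = 2.23e-06). PRR1, the rice TOC1 and an evening repressor of LHY-type genes, read 682, 748 and 681 in WT and 1974, 1848 and 1839 in gi (1.40, SE 0.098, limma adjusted p = 3.43e-06). PRR95, a pseudo-response regulator, rose from 16811 ± 997 to 24630 ± 877 (0.55, limma adjusted p = 0.000568). PRR73 (-0.24, limma adjusted p = 0.0873), PRR37 (-0.17, 0.198) and PCL1, the rice LUX (1.24, 0.0913), were not called by these probe sets, but a dimmer probe set of PRR73 was called lower (-0.46, limma adjusted p = 0.0150).

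Flowering genes were called lower more often than higher. Of 34 tested, 7 fell and 1 rose, with a median log2 change of -0.15, while over all 15698 genes with a tested probe set 12.8% rose, 11.6% fell and the median was -0.01. MADS55, a MADS box repressor of flowering, read 708, 757 and 749 in WT and 457, 312 and 366 in gi (-0.95, SE 0.146, limma adjusted p = 0.00087). SPL9, an SBP box factor of the family that miR156 targets, fell from 8902 ± 717 to 5762 ± 331 (-0.62, limma adjusted p = 0.00019). The SET domain gene SDG718 fell by 0.60, SPL11 by 0.49 and SE5, a haem oxygenase needed to make the phytochrome chromophore, by 0.37 on the log2 scale. MADS18 (-0.66, limma adjusted p = 0.0236) and MADS56 (-0.27, 0.0427) were called too, but kept the call in only 2 and 1 of the 6 fits that left out a shoot array. Without WT shoot replicate 2 or gi shoot replicate 1 there were 2 and 3 risen. SPL12 was the gene that rose in the fit of all 9 arrays, from 109 ± 22.5 to 250 ± 28.1 (1.10, limma adjusted p = 0.00192).

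Hd3a and Hd1, which lie downstream of GI, were at low signal in these 21-day-old shoots. Hd3a, a florigen, averaged 88.3 ± 42.5 in WT and 72.9 ± 23.5 in gi, with overlapping arrays (-0.16, limma adjusted p = 0.845). Hd1, the rice CONSTANS, averaged 52.8 ± 12.0 and 83.6 ± 30.3, also overlapping (0.50, limma adjusted p = 0.324). Neither Ehd3 (-0.12), Ehd4 (-0.23), DTH8 (0.41), MADS50 (-0.23), MADS14 (-0.69), RFL (0.12) nor LFL1 (-1.07) was called. Of these, Ehd4 and MADS50 were well above background, at 1594 ± 115 and 1207 ± 76.1 in WT. LFL1 was near the lower limit of signal in gi at 17.1 ± 9.64. The other uncalled genes of the list lay between -0.55 (MFT1) and 0.94 (SPL7). Of 7 floral organ identity genes tested, Lhs1, a SEPALLATA-type MADS gene also known as MADS1, was the 1 called. It read 44.2, 7.85 and 34.7 in WT shoots and 204, 175 and 150 in gi shoots (2.19, SE 0.372, limma adjusted p = 0.00167).

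Genes of the cell wall and of phenylpropanoid enzymes rose more often than they fell. Of 68 tested, 20 rose and 4 fell, with a median log2 change of 0.34, beside 12.8% risen and 11.6% fallen among all genes. The cellulose synthases of the primary wall were among them. CESA3 read 754, 945 and 771 in WT and 4591, 5337 and 2037 in gi (2.15, SE 0.277, limma adjusted p = 0.000273). CESA1 (2.33), CESA8 (1.94) and CESA6 (1.61) rose as well. The 3 synthases of the rice secondary wall moved likewise: CESA4 read 23.1, 57.0 and 21.4 in WT and 311, 371 and 232 in gi (2.73, limma adjusted p = 0.000268), CESA7 rose by 2.05 and CESA9 by 2.20. A second, brighter probe set of CESA4 was not called (0.08, limma adjusted p = 0.931) and is the one counted in the list.

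Other wall genes that rose were CSLF6, the synthase of mixed-linkage glucan (2.23), BC1, a COBRA-like protein whose loss makes culms brittle (2.56), and the beta-expansin EXPB3 (2.59). For lignin, the cinnamyl alcohol dehydrogenase gene CAD3 rose from 1969 ± 246 to 5587 ± 345 with a small spread (1.50, limma adjusted p = 1.9e-06), and CAD2 rose by 1.06. CHS, chalcone synthase, the entry enzyme of flavonoid synthesis, read 308, 316 and 248 in WT and 3655, 6501 and 1031 in gi (3.26, SE 0.575, limma adjusted p = 0.00212), and its dimmer probe sets were not called. The 4 genes that fell were CAD8C (-0.66), CSLH1 (-0.70), CSLE1 (-0.64) and EXLA1 (-0.43).

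Genes of the cytoskeleton rose beside those of the wall. Of 57 tested, 13 rose and 4 fell (median 0.15), beside 12.8% risen and 11.6% fallen among all genes. TUB8, a beta-tubulin, read 54.7, 75.3 and 64.1 in WT and 773, 1367 and 297 in gi (3.12, SE 0.410, limma adjusted p = 0.000304). TUB1 (1.96), TUB5 (0.84) and the actin gene ACT2 (1.21, limma adjusted p = 4.45e-05) rose too, while the kinesin KIN14K fell by 1.50 on the log2 scale, with a second probe set also called lower (-0.83) and another not called (-0.81). VLN4, a villin that bundles actin filaments, rose from 8.51 ± 5.88 to 169 ± 26.7 (2.94, limma adjusted p = 0.000614), and was called in 3 of the 6 fits that left out a shoot array. The 3 gi arrays were unequal here: gi shoot replicate 3 was the lowest of the gi arrays at 19 of the 20 risen wall genes and at 13 of the 13 risen cytoskeleton genes, against 1133 of the 2015 risen genes overall. Without that array 26 wall and 14 cytoskeleton genes rose. Among genes of dividing cells, 2 of 26 histone and replication genes rose and 1 fell, beside the same 12.8% and 11.6% of all genes. Of 37 cell cycle genes 4 rose and 7 fell (2 rose without gi shoot replicate 2, and 4 fell without WT shoot replicate 1).

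**Figure D4:**
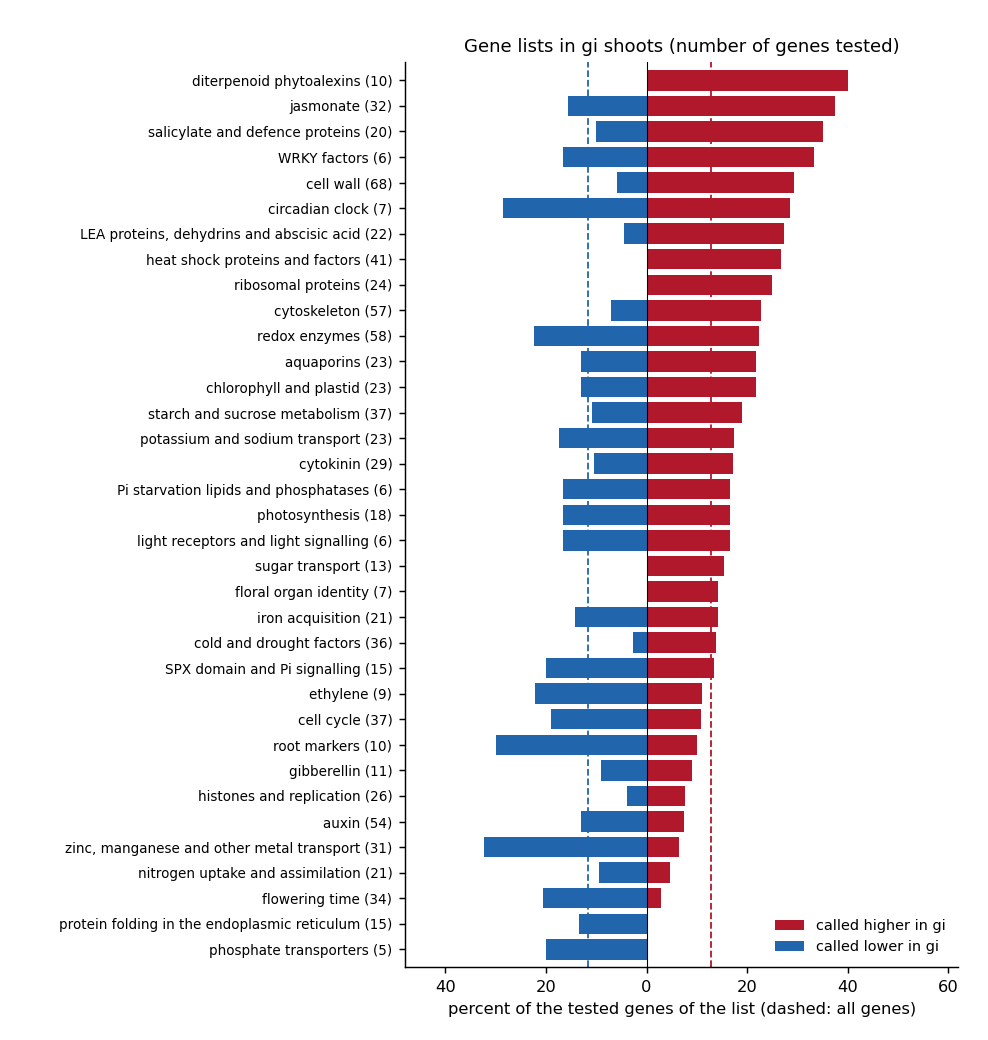
Percent of the tested genes of each of 35 gene lists that were called higher (red, to the right) or lower (blue, to the left) in gi shoots, with the number tested in brackets and dashed lines at the 12.8% and 11.6% of all genes. The longest red bars are those of the diterpenoid phytoalexin (4 of 10) and jasmonate (12 of 32) lists, and the longest blue bar is that of zinc, manganese and other metal transport (10 of 31).

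Jasmonate is a lipid hormone of wounding and defence, made from linolenic acid by lipoxygenases, and JAZ repressors (named TIFY or JAZ in rice) restrain its targets until the receptor COI1 removes them. Of 32 genes tested, 12 rose and 5 fell (median 0.10), beside 12.8% and 11.6% of all genes. The JAZ repressors were among those that rose. JAZ12 read 96.8, 134 and 142 in WT and 503, 709 and 546 in gi (2.10, SE 0.263, limma adjusted p = 0.000225). TIFY10b rose from 3155 ± 228 to 8240 ± 2258 (1.35), TIFY11b by 2.40 and TIFY11c by 2.24. AOS2, an allene oxide synthase, which acts after the lipoxygenases in the pathway, fell by 1.26 on the log2 scale. Of the other genes that fell, COI1B encodes a receptor (-0.66, limma adjusted p = 0.000129), and TIFY2b belongs to a TIFY subgroup of GATA zinc-finger proteins rather than to the JAZ repressors (-1.45). CM-LOX1, a lipoxygenase, read 1554, 1859 and 2371 in WT and 97.3, 154 and 805 in gi (-2.93, SE 0.572, limma adjusted p = 0.00396), the gi arrays being spread widely but below WT. The number of risen genes was 7 without WT shoot replicate 1, WT shoot replicate 3 or gi shoot replicate 2, and that of fallen genes 3 without any WT array or gi shoot replicate 2.

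Defence genes tended upward. Of 20 genes of salicylate and defence proteins 7 rose and 2 fell (median 0.57), beside 12.8% and 11.6% of all genes. PAL, the entry enzyme of phenylpropanoid synthesis, read 2176, 2757 and 1914 in WT and 8862, 9265 and 5340 in gi (1.74, SE 0.184, limma adjusted p = 7.02e-05), with 3 of its other probe sets called higher (1.18 to 1.83) and 1 not (0.89). PBZ1, a pathogenesis-related protein of family 10, rose from 1321 ± 323 to 3200.7 ± 761.6 (1.27). NH3, one of the NPR1-like genes, rose by 0.43, and NH4, of the same family, fell by 1.06 on the log2 scale. Germin-like proteins went both ways: GLP1 rose from 39.9 ± 26.8 to 902 ± 663 (3.69, limma adjusted p = 0.00679), while GLP2 read 178, 172 and 199 in WT and averaged 52.5 ± 2.14 in gi (-1.54, limma adjusted p = 0.0108), with a second probe set not called (-0.46). Among 6 WRKY factors 2 rose and 1 fell, WRKY76 reading 91.8, 151 and 119 in WT and 434, 510 and 744 in gi (2.07, limma adjusted p = 4.1e-05).

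Rice makes diterpenoid phytoalexins, antimicrobial compounds, from geranylgeranyl diphosphate through copalyl diphosphate synthases (CPS) and kaurene synthase-like enzymes (KSL). Of 10 such genes tested 4 rose and 0 fell in limma (median 0.46), and the same 4 and 0 were called in each fit that left out a shoot array. Among all genes 12.8% rose and 11.6% fell. CYP71Z6, a cytochrome P450 of this pathway, read 268, 229 and 178 in WT and 1269, 1152 and 767 in gi (2.15, SE 0.203, limma adjusted p = 3.3e-05). CPS2 rose by 2.32, KSL5 by 2.14 and CYP701A8 by 2.06, and all 3 gi arrays exceeded all WT arrays for each. The lowest of the gi shoot arrays was replicate 3 for all 4 risen genes. In pho2 shoots, set beside these, CYP71Z6 averaged 156 ± 15.7 signal units and CPS2 28.1 ± 20.3. Genes of the lists above varied in this. MADS55 (-1.40), CESA3 (1.68), CHS (3.17), ACT2 (1.25), JAZ12 (3.16) and PAL (1.54) were called in pho2 shoots in the same direction as in gi. PBZ1 was called in the opposite direction there (-2.29), and CM-LOX1 (-0.67) and NH4 (-0.41) were not called.

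Several genes of water and heat stress rose, and their counts stand beside the 12.8% risen and 11.6% fallen among all genes. Of 22 genes of LEA proteins, dehydrins and abscisic acid 6 rose and 1 fell. They include salT, a lectin induced by salt, which read 91.7, 153 and 60.6 in WT and 571, 1068 and 468 in gi (2.60, limma adjusted p = 0.000177), the kinases SAPK9 (1.45) and SAPK7 (1.42), and ABA8OX2, which degrades abscisic acid (0.92, limma adjusted p = 2.47e-05). Of 41 heat shock proteins and factors 11 rose and 0 fell in limma. HSP17.7 read 203, 292 and 167 in WT and 487, 544 and 509 in gi (limma adjusted p = 0.00200) and HSF1 went from 222 ± 4.05 to 478 ± 58.7 (1.05), each with another probe set not called. This count was less stable: it was 5 without WT shoot replicate 1, 6 without gi shoot replicate 3, and 7 without WT shoot replicate 3 or gi shoot replicate 1. Quantile normalization gave 7, and median centring gave 6 with 1 fallen.

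In the plastid, genes of chlorophyll breakdown were among the risen. Of 23 chlorophyll and plastid genes 5 rose and 3 fell, beside 12.8% and 11.6% of all genes. SGR, the magnesium dechelatase that starts chlorophyll breakdown, read 132, 221 and 155 in WT and 539, 843 and 915 in gi (2.07, SE 0.371, limma adjusted p = 0.00236). RCCR1, the reductase of a red breakdown product, rose from 620 ± 26.4 to 1347 ± 332 (1.07), and CHLG, chlorophyll synthase, rose by 0.73. The count of risen genes was 3 without WT shoot replicate 1, WT shoot replicate 3 or gi shoot replicate 2. Of 18 photosynthesis genes 3 rose and 3 fell (1 fell without WT shoot replicate 1 or 3), all by under 1 log2 unit: PPDKB, pyruvate orthophosphate dikinase, rose by 0.55, while PSAG, a photosystem I subunit, fell by 0.45 and the greening regulator GLK1 by 0.38.

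For starch and sucrose, 7 of 37 genes rose and 4 fell (median -0.01), beside 12.8% and 11.6% of all genes. The risen count was 3 or 4 without each of the 6 shoot arrays except gi shoot replicate 3. TPP7, a trehalose phosphate phosphatase, fell by 0.68, and GBSS-I, the amylose synthase Waxy, by 0.82 on the log2 scale, with 1 other probe set also called lower (-0.69) and 3 not called. SSII-3, a soluble starch synthase, was near background in WT at 5.75 ± 1.86 and reached 124 ± 22.6 in gi (2.68, limma adjusted p = 0.00244), with a second probe set not called.

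Metal transporters fell more often than they rose. Of 31 genes of zinc, manganese and other metal transport 10 fell and 2 rose (median -0.10), though 4 to 6 fell without WT shoot replicate 1 or 3 or gi shoot replicate 1 or 2. Among all genes 11.6% fell and 12.8% rose. NRAMP4 read 4713, 3695 and 4226 in WT and 1718, 1902 and 1972 in gi (-1.16, SE 0.174, limma adjusted p = 0.000738), with 3 of its other probe sets also called lower (-0.91 to -1.15) and 1 not (-0.39). The zinc transporters ZIP8 (-1.68), ZIP7 (-0.89) and ZIP2 (-1.22, called in 1 of 6 fits without an array) and the copper transporter COPT1 (-0.48) fell as well. MT4C, a metallothionein, rose from 65.7 ± 17.9 to 294 ± 78.6 (1.92).

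For iron, the most changed gene was NAAT1, nicotianamine aminotransferase, which makes the precursor of iron-binding phytosiderophores. It read 1183, 2942 and 3033 in WT and 196, 112 and 160 in gi, with no overlap (-3.72, SE 0.367, limma adjusted p = 4.48e-05). IRT1, the ferrous iron transporter, fell from 328 ± 34.9 to 169 ± 35.8 (-0.92), and VIT1.2, a vacuolar iron transporter, rose from 552 ± 325 to 3567 ± 740 (2.86, limma adjusted p = 0.00773). Of 21 iron genes 3 rose and 3 fell, beside 12.8% and 11.6% of all genes, with 1 fallen without WT shoot replicate 1 or 3. Of 10 root marker genes tested, 3 fell (NAAT1, IRT1 and the silicon channel Lsi1) and 1 rose, the transcription factor SCR1. The calls of Lsi1 and SCR1 were kept in 1 and 0 of the 6 fits that left out an array, with SCR1 at limma adjusted p = 0.0382 in the fit of all 9. NAAT1, though on that list, averaged 1278 in WT roots, less than in WT shoots. The part of root tissue or of its RNA in these changes was not tested.

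Potassium genes gave 4 up and 4 down of 23, beside 12.8% up and 11.6% down among all genes. There were 7 down without gi shoot replicate 3, and 2 up without WT shoot replicate 3 or gi shoot replicate 2. HAK1, a high-affinity potassium transporter, read 472, 425 and 713 in WT and 112, 129 and 148 in gi (-1.90, SE 0.239, limma adjusted p = 0.000233). Its brighter probe set fell by 1.39. HAK23 fell by 1.11 and the channel AKT1 from 938 ± 90.8 to 473 ± 12.1 (-0.96, limma adjusted p = 0.000119).

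Genes of Pi balance were called in both directions, in plants that had sufficient Pi, and the counts are to be read against the 24.4% of all genes called. Of 5 Pi transporters 0 rose and 1 fell in limma. That gene, PHT1;1, read 835, 954 and 860 in WT and 519, 541 and 768 in gi (-0.54, limma adjusted p = 0.0360), kept its call in 1 of the 6 fits that left out an array, and has another probe set called higher (1.52, limma adjusted p = 0.000785), so its direction is not settled. Of 15 genes of SPX proteins and Pi signalling 2 rose and 3 fell. Without WT shoot replicate 1 or 3 only 1 fell, without WT shoot replicate 2 or 3 or gi shoot replicate 1 only 1 rose, and after median centring 0 rose in limma. SPX4 fell by 0.46 and SPX1 by 0.45, both proteins that restrain PHR factors when Pi is ample, and PHO1;3, of the family that exports Pi from cells, fell from 1049 ± 156 to 667 ± 80.1 (-0.64, limma adjusted p = 0.0115). A dimmer probe set of SPX4 was not called (0.20). ITPK3, an inositol phosphate kinase, rose by 0.37. Of 21 nitrogen genes 1 rose and 2 fell, and of 6 Pi starvation lipid and phosphatase genes 1 rose and 1 fell.

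The counts for growth hormones stand beside the 24.4% of all genes that were called. Of 29 cytokinin genes 5 rose and 3 fell, with 3 risen without WT shoot replicate 1 or 3 or gi shoot replicate 2 and 5 fallen without gi shoot replicate 3. CKX11, a cytokinin oxidase, read 2607, 2285 and 2798 in WT and 837, 729 and 947 in gi (-1.60, SE 0.116, limma adjusted p = 4.94e-06), with a dimmer probe set not called, whereas CKX4, of the same family, rose by 1.45 and the response regulator RR1 by 1.75. Of 54 auxin genes 4 rose and 7 fell, but 1 rose without WT shoot replicate 1 or gi shoot replicate 2, and 2 rose without WT shoot replicate 2 or 3 or gi shoot replicate 1. SAUR39 fell from 776 ± 106 to 284 ± 14.3 (-1.39), IAA1 fell by 0.95 and IAA31 rose by 1.46. Of 11 gibberellin genes 1 rose and 1 fell. The risen 1 was CYP701A8, which is also on the phytoalexin list, and 0 genes fell in any fit that left out a shoot array. Of 9 ethylene genes 1 rose and 2 fell, among them the receptor gene ETR3 (-0.74, limma adjusted p = 0.000133).

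Redox enzymes changed in both directions, with 13 up and 13 down of 58, beside 12.8% up and 11.6% down among all genes. There were 8 down without WT shoot replicate 1, and 8 up after median centring. PRXIIE-2, a peroxiredoxin, rose by 2.02 (limma adjusted p = 0.000414) and APX7, an ascorbate peroxidase, fell by 0.79 on the log2 scale. Of 24 ribosomal protein genes 6 rose, RPL18 by 1.31, but 11 rose after quantile normalization, 2 after median centring, and 3 without WT shoot replicate 1 or 3 or gi shoot replicate 1. Aquaporins gave 5 up and 3 down of 23 (3 up without WT shoot replicate 1 or gi shoot replicate 2, and 1 down without any WT array or gi shoot replicate 2), with TIP1 falling from 8487 ± 1055 to 4527 ± 309 (-0.90, limma adjusted p = 0.000406). Sugar transporters gave 2 up of 13, cold and drought factors 5 up and 1 down of 36 (2 or 3 up in each of the 6 fits that left out an array), light receptors 1 up and 1 down of 6, and protein folding in the endoplasmic reticulum 2 down of 15. In these small counts, and in those of the WRKY, nitrogen, gibberellin and ethylene lists, single calls were lost or gained when 1 array was left out.

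Named genes outside the lists were also among the largest changes. BBD1, a bifunctional nuclease of basal defence, read 186, 223 and 253 in WT and 2622, 2543 and 3261 in gi (3.58, SE 0.159, limma adjusted p = 8.42e-08). APG8D, an ATG8 protein of autophagosomes, rose from 54.1 ± 26.2 to 544 ± 83.5 (3.07), PXG, a peroxygenase, by 2.78 and 4CLL7, a 4-coumarate-CoA ligase-like enzyme, by 2.71. BURP2 fell from 6382 ± 733 to 1555 ± 102 (-2.02, limma adjusted p = 1.01e-05). APG8D is 1 of the 43 probe sets at which WT root replicate 2 stood apart. In pho2 shoots BBD1 (1.36), APG8D (2.59) and BURP2 (-2.97) were called in the same direction, while 4CLL7 was not called (0.25). TOM20, an import receptor of mitochondria, was called lower (-1.39, limma adjusted p = 0.0338) in the fit of all 9 arrays but in only 2 of 6 fits that left out an array, and its other probe sets were not called (-0.05 and 1.06).

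Roots of the same knockout gave fewer calls. In gi roots 782 of 34355 probe sets were called (2.28%), 401 up (1.17%) and 381 down (1.11%), and without WT root replicate 2 there were 556 (1.62%), 337 up (0.981%) and 219 down (0.637%). Of the probe sets tested in both tissues, 244 were called in both, which is 4.34% of those called in shoot and 36.7% of those called in root. Of the 244, 177 had the same direction and 67 the opposite. Without WT root replicate 2 the number was 222, or 3.95% and 46.2%, with 182 of the same direction. The difference of the gi effect between root and shoot, tested in all 18 arrays, was called at 4198 probe sets (12.2%).

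The clock genes changed in root too, by different amounts. LHY fell in root from 3299 to 501 mean signal units (-2.68), further than in shoot by a difference of -1.63 (SE 0.091, limma adjusted p = 3.26e-08). PRR95 rose by 1.32 in root, 0.77 more than in shoot (limma adjusted p = 0.000638). PRR1 rose by 1.26 in root, and a difference from its shoot change of 1.40 was not called (limma adjusted p = 0.557). The root calls of these 3 genes were kept without WT root replicate 2. Other genes moved in opposite directions in root and shoot. IRT1 rose in root from 838 to 2400 (1.48, limma adjusted p = 0.000945) while it fell in shoot, a difference of 2.40 (limma adjusted p = 3.51e-05). CM-LOX1 rose in root by 1.60, but its root call was lost without WT root replicate 2 (limma adjusted p = 0.0704), while the difference of 4.53 stayed called (0.00350 without that array). The blue light receptor gene nph1a fell by 0.60 in shoot and rose by 1.23 in root. NAAT1 was 1278 in WT roots and 1435 in gi roots (0.05, limma adjusted p = 0.956), and its difference from shoot was called (3.77, limma adjusted p = 0.000306).

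**Figure D5:**
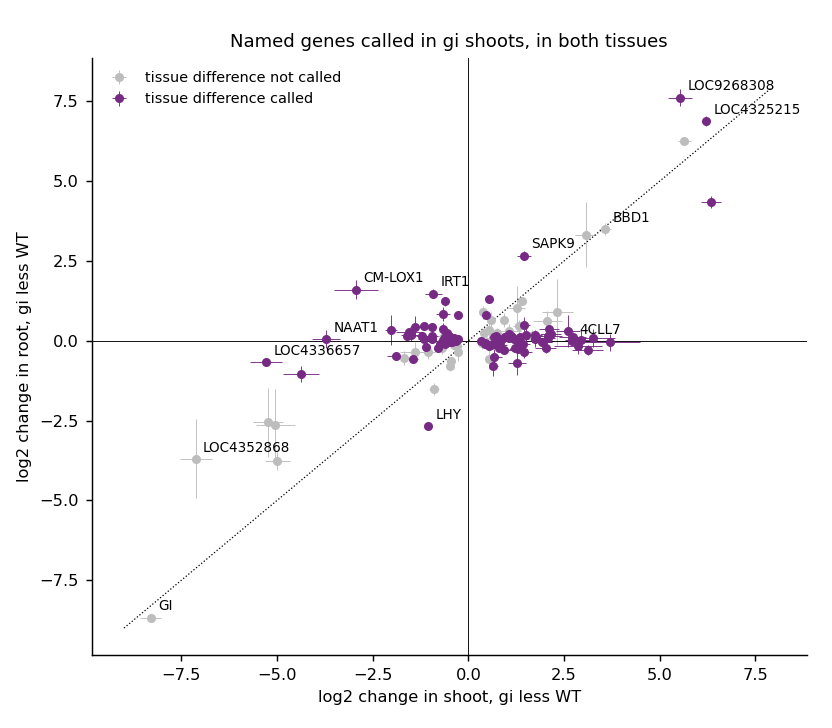
Log2 change in root against that in shoot (gi less WT, bars are SE) for the genes, loci and probe sets named here that were called in gi shoots and tested in root, from the fits of 9 arrays per tissue. Purple points were called for the tissue difference, the dotted line marks equal changes, and many points lie near 0 in root.

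Some large changes were shared by both tissues, and part of them lay side by side. Called in the same direction with at least 2 log2 units in both tissues were 19 probe sets (GI among them), and 43 without WT root replicate 2. LOC9268308 reached 12494 signal units in gi roots against 47.9 in WT roots (7.62, limma adjusted p = 1.6e-07), and BBD1 reached 1478 against 114 (3.50, limma adjusted p = 4.22e-06). In pho2 roots LOC9268308 averaged 439, also above WT roots. On chromosome 1, the chromosome of GI, the loci Rictpi2, LOC4325213 and LOC4325215 lay within 4 neighbouring genes of the RefSeq assembly ASM3414082v1. They rose by 2.53, 5.11 and 6.21 in gi shoots and by 2.02, 4.86 and 6.89 in gi roots. The same loci rose by 3.08, 4.92 and 6.25 in pho2 shoots, which share the WT shoot arrays with gi. There too, loss of GI and another difference from the WT plants cannot be told apart. Without WT root replicate 2, 2 more groups of near neighbours appeared: LOC9268937 and APG8D, adjacent at the start of chromosome 11, and LOC4352856, LOC4352866 and LOC4352868 within 15 genes near the end of chromosome 12. At each of these 5 loci WT root replicate 2 lay with the gi roots. LOC4352868, for example, read 5942 and 5697 signal units on WT root replicates 1 and 3, 85.1 on WT root replicate 2, and 104 on average in gi roots. Its root change was -3.70 with that array (limma adjusted p = 0.175) and -5.65 without it (1.58e-06).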

How the data were processed

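Shoot and root RNA of WT, gi and pho2 rice was hybridised to 18 Affymetrix arrays, 3 per group, grouped by title. As deposited, each array has 1 linear intensity per probe set. The submitters' processing notes name MAS5, and its version and settings are not stated there. The trimmed mean of every array was 500.1 when tested. Of 57381 probe sets, 123 controls were left out. No further scaling was applied before taking log2(value + 16), and probe sets with a mean under the 40th percentile of the fitted arrays were not tested. The 9 arrays of each tissue were fitted by lmFit and eBayes (intensity trend on) of limma 3.58.1 under R 4.3.3, and the tissue difference (effect in root less that in shoot) in all 18. Tests were two-sided, with Benjamini-Hochberg adjustment over all probe sets tested. The fit was tested on simulated data.

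Names came from the platform annotation and a table of RefSeq genes: 22436 probe sets had 1 gene, 3186 of them with a name, and 95 had several. In list counts a gene is its brightest probe set in shoots, and the 35 lists were filled by patterns in names. Members and lists were chosen with earlier results of these data known. Named are GI, the 12 highest and 12 lowest called changes of named genes and the 6 highest and 6 lowest of unnamed probe sets without overlap between groups, up to 4 called genes of smallest p per list, all clock and flowering genes, and the 4 named genes of smallest p for the tissue difference. Further called list members, and loci called in both tissues, were named after their values were seen. Alternatives changed the pseudocount (1, 64), filter, scaling, arrays fitted, weights, trend and replicate block, or left out 1 array. PHO2 has no name in these tables and promoter sequences were not analysed here.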

Additional observations from a re-analysis of the deposited data

Results flagged for a closer look

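The gi effect differed between root and shoot, by the test of the difference itself, at 17 named genes or loci that were called in shoot and either called in root or among the 4 of smallest p. Values are the log2 effect in root less that in shoot. Of genes that fell in shoot, the difference was 4.59 for LOC4336657, 4.53 for CM-LOX1, 2.40 for IRT1, 1.83 for nph1a, 1.75 for CKX11, 1.63 for NRAMP4, 1.38 for AKT1, 1.07 for MADS56, 0.88 for TIFY2b and -1.63 for LHY. Of genes that rose in shoot, it was 2.09 for LOC9268308, 1.22 for SAPK9, 0.77 for PRR95, 0.67 for LOC4325215, 0.38 for TIP4;1, -1.99 for Os.46459.1.S1_at and -2.73 for 4CLL7. CKX11, whose root change was 0.15, and 4CLL7, at -0.02, were not called in root. Without WT root replicate 2, the array that stood apart, the limma adjusted p was 0.0695 for LOC4325215 and 0.0956 for TIP4;1, and the others stayed called. The call in root was lost without that array for AKT1 (limma adjusted p = 0.0962) and CM-LOX1 (0.0704), while their root changes moved little, from 0.42 to 0.40 and from 1.60 to 1.50.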

How the results depend on the processing

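No named gene turned its direction with a call under any alternative. The count of calls in gi shoots, 6027, was 3965 without the intensity trend, where 1747 fell, and 1899 rose after median centring. With the replicate block it was 5399, and 5247 of the 6027 calls were kept, though same-numbered gi and WT shoot arrays did not deviate together (r of deviations -0.01 to 0.0). Leaving out 1 array gave 3849 to 6238 calls, 2146 to 3055 up and 1703 to 3183 down, with 1703 down without WT shoot replicate 1, 1801 without WT shoot replicate 3 and 1961 without gi shoot replicate 2. Called in all 6 of these fits were 3230 probe sets. In gi roots the 782 calls became 410 without the trend and 313 to 560 with 1 array left out, with 313 without WT root replicate 1, 468 without WT root replicate 3 and 368 without gi root replicate 2. The tissue difference was called at 2426 probe sets after median centring, against 4198, and at 2971 to 4893 with 1 array left out. Of the 148 called named probe sets, 25 were not called without the trend, 15 after median centring and 10 to 19 with 1 array left out. The causes were not tested. The number of arrays, 3 per group, limits what can be detected.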
